A study of Mus musculus with 35 samples.

Results

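The C/EBP transcription factors were followed through 6 treatments of cultured mouse macrophages. The members were 6 genes given by symbol: Cebpa, Cebpb, Cebpd, Cebpg, Cebpz and Ddit3. Each of the 6 symbols mapped to a single Ensembl identifier of the 47069 in the deposited tables, and all 6 passed the filter of a mean of at least 1 FPKM (fragments per kilobase of exon, scaled to the mapped fragments of the library) that left 11354 genes for testing. The cells were bone-marrow-derived macrophages (BMDMs), which are marrow cells grown into macrophages with medium conditioned by L929 cells, from C57BL/6 mice that were either wild type (WT) or labelled AMPKa1-/-, a knockout of the catalytic subunit α1 of the energy sensor AMP-activated protein kinase. Cultures of each genotype received vehicle (DMSO), the synthetic glucocorticoid dexamethasone (Dex, 100 nM), bacterial lipopolysaccharide (LPS, 100 ng/ml), LPS + Dex, damage-associated molecular patterns (DAMPs, 1 µg/ml) or DAMPs + Dex for 24 h before RNA was taken. Total RNA of 35 cultures was sequenced, 3 per genotype and treatment except WT LPS, for which 2 were used. DMSO is the only agent named for the control group, the make-up of the DAMPs is not in the labels, and a single time point was taken. The study's methods describe cultures from individual adult mice of both sexes, so the error terms below cover the spread between cultures.

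C/EBP proteins carry a basic leucine zipper (bZIP) and bind DNA as dimers. C/EBPα drives the formation of granulocyte and monocyte precursors in the marrow, whereas C/EBPβ and C/EBPδ are best known as the factors that turn on acute-phase genes in liver and macrophages after an inflammatory signal. C/EBPγ lacks a strong activation domain and pairs with other bZIP factors, Ddit3 (CHOP) is a stress-induced partner that blocks binding to the usual C/EBP sites, and Cebpz is named for binding a CCAAT box but has no bZIP and works in the nucleolus. Glucocorticoids act through the glucocorticoid receptor, which often binds near C/EBP proteins on chromatin.

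The labels were checked against the data first. Prkaa1, the gene for AMPKα1, gave 15.9, 11.8 and 15.3 FPKM in the WT vehicle cultures and 14.8, 16.5 and 15.4 FPKM in those labelled AMPKa1-/-. Levels overlapped in this way under vehicle, and Prkaa1 did not pass the test between genotypes in any of the 6 treatments, with log2 differences from -0.29 to 0.33. The value covers the whole gene and the allele is not described, so it does not check the genotype label, and every statement on genotype below is about the libraries labelled AMPKa1-/-. All 10 macrophage markers averaged at least 1 FPKM, led by Lyz2 (lysozyme) at a mean of 24097 FPKM. Of 13 markers of neutrophils and granulocyte precursors, cells that also use C/EBP factors, 5 reached a mean of 1 FPKM, led by Mmp8, and Stfa1 was at 0 in all libraries. The granulocyte factor Cebpe, the family member outside the set, stayed between 0.284 and 3.58 FPKM. Markers of T cells (most abundant Cd4), B cells (Ighm) and fibroblasts (Col1a2) reached a mean of 1 FPKM in 1, 1 and 3 of 6 genes, and those of mast cells (Cpa3) and dendritic cells (Xcr1) in none of 6. Summed B cell markers were 72.1 FPKM under vehicle, 13.2 under Dex and 3.99 under LPS in WT, and 66.3, 22.3 and 1.85 in the labelled knockout. The WT sums under vehicle, Dex and LPS were 16.5, 10.6 and 1.01 for T cell markers, and 15.2, 25.9 and 124 for the 13 neutrophil and precursor markers. The part of these markers in the results for LPS and for Dex alone was not tested. Since these are bulk cultures, fewer cells of a type and less RNA per cell cannot be told apart. The tables held no fragment counts, but the steps between low values gave estimated totals of 15837203 to 31955298 fragments per library.

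**Figure D1:**
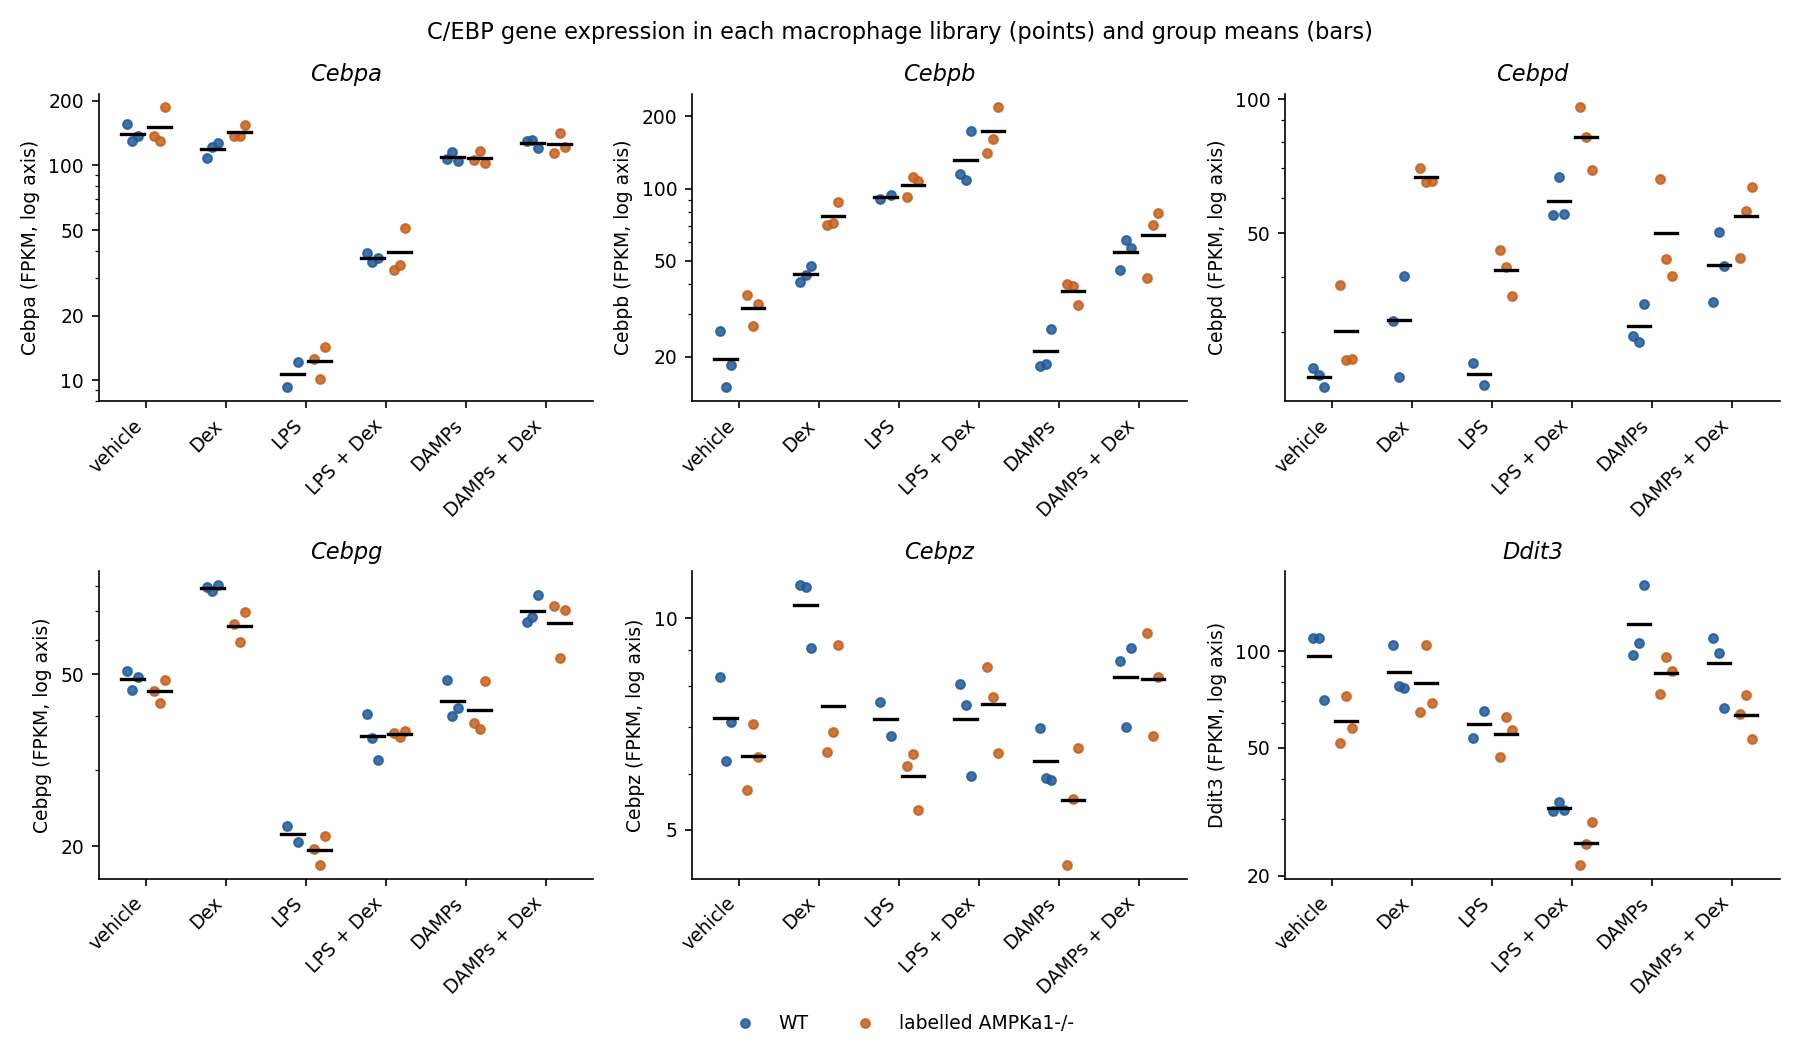
FPKM (log axis) of the 6 C/EBP genes in each of the 35 libraries, by treatment, with WT in blue and libraries labelled AMPKa1-/- in orange. Points are single cultures and black bars are group means; Cebpa is at or under 14.4 FPKM in the LPS libraries and above 100 FPKM under vehicle, while Cebpb is highest under LPS + Dex.

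At rest Cebpa was the most abundant member per length, at 141 ± 13 FPKM (SD, n = 3) in WT vehicle cultures. Ddit3 followed at 96.8 ± 22.7 FPKM, Cebpg at 48.7 ± 2.51, Cebpd at 23.9 ± 1.21, Cebpb at 19.6 ± 5.44 and Cebpz at 7.21 ± 0.988 FPKM. The spread of group means over the 12 groups, highest over lowest, was widest for Cebpa at 14.2-fold, then 8.82-fold for Cebpb, 4.79-fold for Ddit3, 4.03-fold for Cebpg, 3.46-fold for Cebpd and 1.90-fold for Cebpz. For Cebpz, all 11 pairs of neighbouring groups in the order of means overlapped in their single-library values, so no step in that order stood clear of the spread between cultures. In Cebpa only 2 of 11 neighbouring pairs did not overlap: those that set the LPS + Dex groups below all groups without LPS, and the LPS groups below the LPS + Dex groups.

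The 6 genes did not move as a block. LPS against vehicle changed 4 of them in WT cultures, where 55.7% of all genes tested passed an adjusted p of 0.05, and 4 in the libraries labelled AMPKa1-/-, where 64.3% did. Dex given with LPS, set against LPS alone, changed 4 members in WT (34.1% of all genes) and 5 in the labelled knockout (37.7%). Dex without LPS changed 3 members in each genotype, beside 30.9% and 27.9% of all genes. LPS + Dex against vehicle changed 5 in each, beside 54.2% and 57.4%. DAMPs against vehicle changed 0 members in WT by limma and 1 in the labelled knockout, beside 2.01% and 4.13% of all genes, and at an unadjusted p under 0.05 the counts were 1 and 3, beside 9.68% and 13.3% of all genes. Dex given with DAMPs changed 2 members in WT and 3 in the labelled knockout against DAMPs alone (24.3% and 25.3% of all genes), and 3 in each against vehicle (24.9% and 26.1%). With only 6 members, these counts describe the members and do not set the family apart from other genes.

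**Figure D2:**
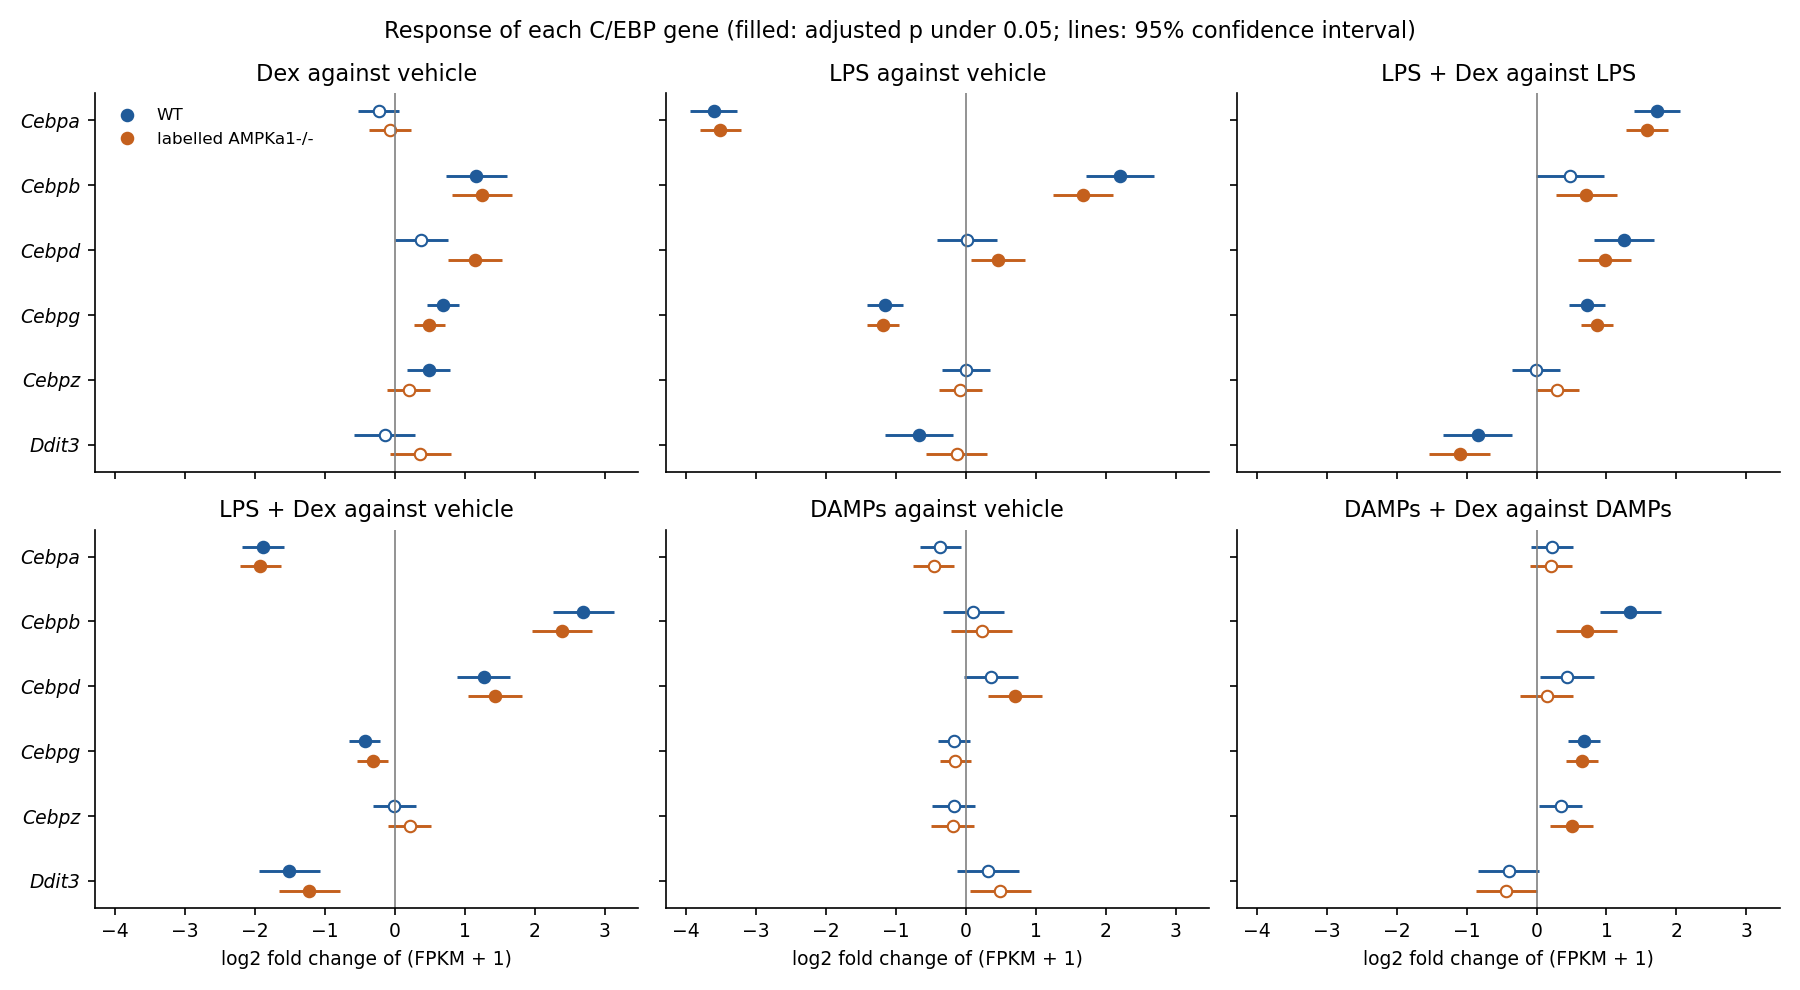
Log2 fold change of FPKM + 1 for each C/EBP gene in 6 comparisons, WT in blue and libraries labelled AMPKa1-/- in orange. Lines are 95% confidence intervals and filled points passed an adjusted p of 0.05; under LPS, Cebpa lies far to the left and Cebpb to the right of 0, and in LPS + Dex against LPS the points for Cebpa, Cebpd and Cebpg lie to the right and those for Ddit3 to the left.

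Cebpa (chr7:35119293-35121928, plus strand, a single exon on GRCm38) fell the furthest of the 6 genes under LPS and was partly restored when Dex was present. Its promoter is shown because it is the member that LPS lowered most. The RefSeq table (GRCm38.p6) held promoters for 4 of the 6 members, not for Cebpd or Cebpz. The 250 bases before the Cebpa start (chr7:35119043-35119292, plus strand) hold 1 match, in capitals, to the TATA box letters TATAAA, which 12.4% of all 32851 promoters in the table hold on either strand.
Cebpa: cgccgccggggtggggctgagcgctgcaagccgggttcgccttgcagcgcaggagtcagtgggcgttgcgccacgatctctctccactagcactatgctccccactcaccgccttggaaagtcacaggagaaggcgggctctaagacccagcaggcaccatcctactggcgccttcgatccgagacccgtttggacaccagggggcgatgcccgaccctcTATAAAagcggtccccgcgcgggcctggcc
Neither the C/EBP core letters TTGCNNAA, in 9.56% of all promoters, nor the STAT letters TTCNNNGAA, in 7.02%, occurred in any of the 4 windows, which says only that these letters are not there.

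In WT cultures Cebpa was 155, 130.0 and 137 FPKM under vehicle and 9.27 and 12.1 FPKM under LPS. With LPS + Dex the values were 39.1, 35.4 and 37.2 FPKM. The 3 groups did not overlap: LPS + Dex stood between vehicle and LPS, in a narrow band. Folds are of fitted FPKM + 1, and each log2 change on that scale is given with its standard error. LPS lowered Cebpa 12.2-fold (log2 change -3.61 ± 0.16, adjusted p = 9.1e-17), and LPS + Dex was 3.29-fold above LPS (log2 change 1.72 ± 0.16, adjusted p = 1.6e-09). It remained 3.70-fold below vehicle (log2 change -1.89 ± 0.14, adjusted p = 9.3e-12). Libraries labelled AMPKa1-/- gave 138, 130.4 and 186 FPKM under vehicle, 12.6, 10.1 and 14.4 under LPS and 32.7, 34.5 and 51 under LPS + Dex. The order was the same, with changes of -3.51 ± 0.14 (adjusted p = 9.9e-18) for LPS and 1.58 ± 0.14 (adjusted p = 6.1e-10) for Dex added to LPS. Without LPS, Cebpa was 109, 122 and 128 FPKM under Dex in WT, a change that did not pass the test (log2 change -0.23 ± 0.14, adjusted p = 0.22), with a 95% interval of -0.53 to 0.06. The effect of Dex with LPS differed from its effect without LPS, by 1.95 ± 0.22 log2 units in WT (adjusted p = 8.3e-08) and 1.65 ± 0.20 in the labelled knockout (adjusted p = 4.2e-07). For this difference of 2 responses, 32% and 28.4% of all genes passed, and 2 members passed in each genotype. Under DAMPs Cebpa was 107, 115 and 105 FPKM in WT, below all vehicle cultures, a log2 change of -0.36 ± 0.14 that did not pass the test (adjusted p = 0.3). In the labelled knockout the same change was -0.46 ± 0.14 (adjusted p = 0.073), which passed without LPS + Dex replicate 3 (adjusted p = 0.029) and with the replicate number as a block (0.044).

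Cebpb (chr2:167688915-167690418, plus strand, a single exon), the factor most often tied to macrophage activation and the acute phase, went the other way. It rose under LPS, rose under Dex alone, and stood highest when both were given. Of its 1504 exon bases, 312 are shared with Tmem189 on the other strand, and whether the counting used strand is not given in the sources used here. Its promoter is shown beside that of Cebpa because the pair moved in opposite directions under LPS. The 250 bases before its start (chr2:167688665-167688914, plus strand) hold 3 matches, in capitals, to TGACG, the half-site of CREB and ATF factors, counted on both strands.
Cebpb: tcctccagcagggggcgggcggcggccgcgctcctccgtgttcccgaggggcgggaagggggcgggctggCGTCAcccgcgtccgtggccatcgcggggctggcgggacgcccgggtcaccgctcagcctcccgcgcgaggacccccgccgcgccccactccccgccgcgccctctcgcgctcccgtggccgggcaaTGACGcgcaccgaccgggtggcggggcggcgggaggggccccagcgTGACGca
At least 1 such match was in 17.8% of all promoters of this length and 3 or more in 0.688%. None was in the windows of Cebpa, Cebpg or Ddit3. The window is 81.6% G and C, against a median of 52.4% over all promoters.

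WT cultures gave 25.6, 14.9 and 18.4 FPKM of Cebpb under vehicle, 41, 43.7 and 47.8 under Dex and 90.9 and 93.7 under LPS. With LPS + Dex the values were 115, 108 and 174 FPKM. The vehicle, Dex and LPS groups did not overlap, and all LPS + Dex cultures lay above both LPS cultures, but replicate 3 stood well above the other 2. Dex alone raised Cebpb 2.24-fold (log2 change 1.16 ± 0.21, adjusted p = 0.00012) and LPS raised it 4.63-fold (log2 change 2.21 ± 0.24, adjusted p = 6.2e-09). LPS + Dex was 6.46-fold above vehicle (log2 change 2.69 ± 0.21, adjusted p = 1.7e-11), while the step from LPS to LPS + Dex, 0.48 ± 0.24, did not pass the test in WT (adjusted p = 0.12), with an interval of -0.00 to 0.97. Libraries labelled AMPKa1-/- gave 36, 26.7 and 33.2 FPKM under vehicle, 70.5, 72.2 and 87.9 under Dex, 92.3, 112 and 107 under LPS and 141, 161 and 217 under LPS + Dex. There the step from LPS to LPS + Dex passed, at 0.71 ± 0.21 (adjusted p = 0.0085), but not without LPS + Dex replicate 3 (adjusted p = 0.072). The WT and labelled knockout steps were not shown to differ (0.23 ± 0.32, adjusted p = 1). The effect of Dex on Cebpb with LPS minus that without it was -0.68 ± 0.32 in WT and -0.53 ± 0.30 in the labelled knockout, and neither difference passed (adjusted p = 0.1 and 0.2). In WT it passed without vehicle replicate 1 (adjusted p = 0.037) or LPS + Dex replicate 3 (0.034).

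DAMPs alone left Cebpb at 18.3, 18.6 and 26.1 FPKM in WT, overlapping vehicle (log2 change 0.11 ± 0.21, adjusted p = 1). Adding Dex to DAMPs gave 45.9, 60.9 and 56.8 FPKM, above all 3 DAMPs cultures, a 2.54-fold rise (log2 change 1.34 ± 0.21, adjusted p = 1.6e-05). In the libraries labelled AMPKa1-/- the DAMPs values were 40.0, 39.5 and 32.7 FPKM and the DAMPs + Dex values 42.5, 70.5 and 79.2 FPKM. That rise of 0.72 ± 0.21 (adjusted p = 0.012) no longer passed without DAMPs replicate 3, DAMPs + Dex replicate 2 or DAMPs + Dex replicate 3, with adjusted p from 0.057 to 0.1.

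Cebpd (chr16:15887286-15891031, plus strand, a single exon), which is known as an immediate responder to cytokines and glucocorticoids, was at its highest level where LPS and Dex were combined. Of its 3746 exon bases, 562 are shared with Spidr on the other strand. WT values were 25, 24.1 and 22.6 FPKM under vehicle, 31.9, 23.9 and 40.2 under Dex and 25.6 and 22.8 under LPS. LPS + Dex gave 55, 67 and 55.2 FPKM, above every culture of the other 3 groups. LPS alone did not pass (log2 change 0.02 ± 0.21, adjusted p = 0.95), with an interval of -0.41 to 0.45, and LPS + Dex was 2.38-fold above LPS (log2 change 1.25 ± 0.21, adjusted p = 2.4e-05). The WT response to Dex alone, 0.38 ± 0.19, did not pass (adjusted p = 0.12), and did without Dex replicate 2 (adjusted p = 0.039). The excess of the Dex effect with LPS over that without it was 0.87 ± 0.28 in WT (adjusted p = 0.019). This call was lost without Dex replicate 2, LPS replicate 3 or LPS + Dex replicate 2, with adjusted p from 0.051 to 0.074.

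Libraries labelled AMPKa1-/- gave 38.4, 26 and 26.1 FPKM of Cebpd under vehicle, 70.0, 65.1 and 65.5 under Dex, 46, 42 and 36.2 under LPS and 95.8, 82.4 and 69.3 under LPS + Dex. Here the Dex group stood clear of the vehicle group, and Dex alone raised Cebpd 2.21-fold (log2 change 1.14 ± 0.19, adjusted p = 2.9e-05), while LPS + Dex was 1.96-fold above LPS (log2 change 0.97 ± 0.19, adjusted p = 0.00012). The difference between those Dex effects was -0.17 ± 0.26 and did not pass (adjusted p = 0.69). A small rise under LPS (log2 change 0.46 ± 0.19, adjusted p = 0.033) was lost without vehicle replicate 2 or 3 or LPS replicate 1 or 2, with adjusted p from 0.07 to 0.13, and with no filter on low genes (adjusted p = 0.069). The rise under DAMPs (log2 change 0.70 ± 0.19, adjusted p = 0.026) was lost without vehicle replicate 2 or 3 or DAMPs replicate 1, with adjusted p from 0.16 to 0.26; the DAMPs values were 66.1, 43.8 and 40.1 FPKM. With DAMPs + Dex, Cebpd reached 35, 50.5 and 42.2 FPKM in WT and 44.1, 56.1 and 63.7 FPKM in the labelled knockout. Both were above vehicle, by 0.79 ± 0.19 (adjusted p = 0.0019) and 0.84 ± 0.19 (adjusted p = 0.00096), and neither differed from DAMPs alone at the threshold (adjusted p = 0.092 and 0.63). The WT step from DAMPs to DAMPs + Dex passed without DAMPs + Dex replicate 1 (adjusted p = 0.049).

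Cebpg (chr7:35046422-35056573, minus strand), the dimer partner, lies 62.7 kb from Cebpa on the opposite strand. Over 12 group means of log2(FPKM + 1), all drawn from the same libraries, its Pearson r with Cebpa was 0.89. With Prkaa1, on chromosome 15, r was also 0.89, so this value is not particular to the neighbour. Cebpg fell under LPS, rose under Dex, and with both stood between LPS and vehicle. Cebpa did not pass as changed under Dex alone in either genotype. Of its 5621 exon bases, 73 are shared with Gm44836 on the same strand. The 250 bases before its RefSeq start (chr7:35056567-35056816, minus strand, of which the last 7 lie inside the GENCODE gene given above) are shown to set them beside those of its neighbour: they hold 2 matches, in capitals, to CCAAT read on the other strand, and no TATAAA.
Cebpg: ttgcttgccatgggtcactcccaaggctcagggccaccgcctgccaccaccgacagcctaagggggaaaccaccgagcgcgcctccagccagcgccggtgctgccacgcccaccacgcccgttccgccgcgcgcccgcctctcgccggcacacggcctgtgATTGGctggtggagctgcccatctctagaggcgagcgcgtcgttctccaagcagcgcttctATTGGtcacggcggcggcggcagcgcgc
A CCAAT match on either strand was in 33.8% of all promoters, and 2 or more in 10.1%.

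In WT cultures Cebpg was 50.9, 46 and 49.4 FPKM under vehicle, 79.5, 77.7 and 80.3 under Dex and 22.2 and 20.4 under LPS. LPS + Dex gave 40.5, 35.6 and 31.6 FPKM. None of the 4 groups overlapped another, and the spread within each was small. LPS lowered Cebpg 2.23-fold (log2 change -1.16 ± 0.12, adjusted p = 5.8e-09). Dex raised it without LPS (log2 change 0.69 ± 0.11, adjusted p = 2.2e-05) and with it (log2 change 0.72 ± 0.12, adjusted p = 3.2e-05), and the difference between those effects was 0.03 ± 0.17 with an interval of -0.31 to 0.37. Libraries labelled AMPKa1-/- gave 45.8, 42.9 and 48.6 FPKM under vehicle, 65.4, 59.3 and 69.7 under Dex, 19.7, 18.1 and 21.2 under LPS and 36.7, 35.7 and 36.9 under LPS + Dex, in the same order. There the difference between the Dex effects with and without LPS was 0.37 ± 0.16 (adjusted p = 0.079), with an interval of 0.05 to 0.69, and it passed with the replicate number as a block (adjusted p = 0.033). The changes there were 0.49 for Dex (adjusted p = 0.0011), -1.18 for LPS (adjusted p = 3.5e-10) and 0.86 for Dex added to LPS (adjusted p = 3e-07). Dex added to DAMPs raised Cebpg in both genotypes, by 0.68 ± 0.11 (adjusted p = 2.4e-05) in WT and 0.65 ± 0.11 (adjusted p = 4.6e-05) in the labelled knockout. The shortfall of LPS + Dex against vehicle was -0.44 ± 0.11 (adjusted p = 0.0015) in WT and -0.32 ± 0.11 (adjusted p = 0.015) in the labelled knockout, where it was lost without vehicle replicate 3 (adjusted p = 0.065). It did not pass once the libraries were centred on a common median (adjusted p = 0.076 and 0.81): the median log2 change of all genes was -0.23 and -0.28 in these comparisons, and -0.19 and -0.30 for LPS against vehicle.

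Ddit3 (chr10:127290774-127296288, plus strand), the stress-response member, was the only one of the 6 to pass as a fall when Dex was added to LPS. WT values were 109.6, 110.2 and 70.5 FPKM under vehicle, 104, 77.7 and 77 under Dex and 53.6 and 65.2 under LPS. LPS + Dex gave 31.9, 33.9 and 32 FPKM, below every other WT culture. Ddit3 fell by 0.841 on the log2 scale in LPS + Dex against LPS (log2 change -0.84 ± 0.24, adjusted p = 0.0068), although not without LPS replicate 3 (adjusted p = 0.093). Against vehicle the fall was 2.85-fold (log2 change -1.51 ± 0.21, adjusted p = 9.1e-07). LPS alone lowered it less (log2 change -0.67 ± 0.24, adjusted p = 0.018), a call lost without vehicle replicate 1 or 2 or LPS replicate 2 (adjusted p from 0.072 to 0.16) and on centred libraries (0.11). Libraries labelled AMPKa1-/- gave 51.9, 72.5 and 57.9 FPKM under vehicle, 64.9, 104 and 69.2 under Dex, 46.7, 62.3 and 56.8 under LPS and 21.6, 25.1 and 29.3 under LPS + Dex. LPS + Dex was again the lowest group and did not overlap LPS, with a change of -1.10 ± 0.21 (adjusted p = 0.00014). LPS alone changed Ddit3 by -0.13 ± 0.21 there (adjusted p = 0.61). The effect of Dex with LPS minus that without was -0.69 ± 0.32 in WT (adjusted p = 0.098, or 0.05 with a replicate block) and -1.46 ± 0.30 in the labelled knockout (adjusted p = 0.00046). DAMPs gave the highest WT mean, from 97.6, 106 and 160.4 FPKM, without passing the test (log2 change 0.32 ± 0.21, adjusted p = 0.82). Ddit3 shares 105 of its 1713 exon bases with a second annotated Ddit3 identifier, which was not used here, and 68 with Mars on the other strand.

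The 250 bases before the RefSeq start of Ddit3 (chr10:127290543-127290792, plus strand, of which the last 19 lie inside the GENCODE gene given above) are shown as those of the member that fell when Dex was added to LPS. They hold 1 match to the AP-1 letters TGACTCA and 1 to CCAAT on the other strand, both in capitals.
Ddit3: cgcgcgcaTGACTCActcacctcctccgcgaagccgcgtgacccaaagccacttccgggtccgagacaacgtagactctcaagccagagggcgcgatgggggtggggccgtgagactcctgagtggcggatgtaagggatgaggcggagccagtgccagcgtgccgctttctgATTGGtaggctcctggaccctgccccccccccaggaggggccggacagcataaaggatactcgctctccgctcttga
The AP-1 letters, whose first 4 bases are also those of TGACG, were in 4.46% of all promoters on either strand. Cebpa, Cebpb and Cebpg had none.

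Cebpz (chr17:78919006-78937066, minus strand, which shares 171 of its 4658 exon bases with Cebpzos on the other strand), was the least abundant and the flattest member. WT cultures gave 8.24, 6.27 and 7.12 FPKM under vehicle, 11.1, 11.1 and 9.08 under Dex, 7.60 and 6.79 under LPS and 8.05, 7.52 and 5.95 under LPS + Dex. The WT Dex group stood above vehicle, and the rise of 0.48 ± 0.15 (adjusted p = 0.016) was lost without vehicle replicate 2 or Dex replicate 1 or 2 (adjusted p from 0.062 to 0.093). LPS gave 0.00 ± 0.17 in WT and -0.08 ± 0.15 in the labelled knockout, with intervals of -0.34 to 0.35 and -0.39 to 0.23. A rise with DAMPs + Dex against DAMPs in the labelled knockout (log2 change 0.50 ± 0.15, adjusted p = 0.013) was lost without DAMPs replicate 1 or DAMPs + Dex replicate 1 (adjusted p from 0.091 to 0.1). For LPS + Dex against vehicle in those libraries the change of 0.21 ± 0.15 (adjusted p = 0.23) did not pass, but did once libraries were centred on a common median (adjusted p = 0.00074) or quantile-normalised (0.00021).

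Because FPKM is a level per length, the make-up of the family can be given within each library. Over the 5 bZIP genes (all but Cebpz), Cebpa made up 42.8% of the summed FPKM in WT vehicle cultures (40.0% to 46% over 3 libraries) and Cebpb 5.91% (4.58% to 6.98%). Under LPS the shares were 5.13% for Cebpa (4.6% to 5.66%) and 44.4% for Cebpb (43.7% to 45.1%). The ratio of Cebpb to Cebpa was 0.138 ± 0.0253 under vehicle (SD, n = 3), 0.370 ± 0.00934 under Dex, 8.77 ± 1.46 under LPS (n = 2) and 3.55 ± 0.971 under LPS + Dex. LPS thus turned the leading member from Cebpa to Cebpb in every LPS library, and the LPS + Dex libraries had a lower ratio with a higher level of both genes. Ddit3 dropped from 28.5% of the sum under LPS (26.6% to 30.4%) to 11.1% under LPS + Dex (9.70% to 12.1%), and Cebpd made up 11.7% and 20.1%. In the libraries labelled AMPKa1-/- the ratio of Cebpb to Cebpa was 0.215 ± 0.0422 under vehicle, 8.63 ± 2.12 under LPS and 4.41 ± 0.218 under LPS + Dex. The summed level itself was lowest under LPS, at 208 ± 8.91 FPKM in WT against 329.7 ± 34.4 under vehicle.

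**Figure D3:**
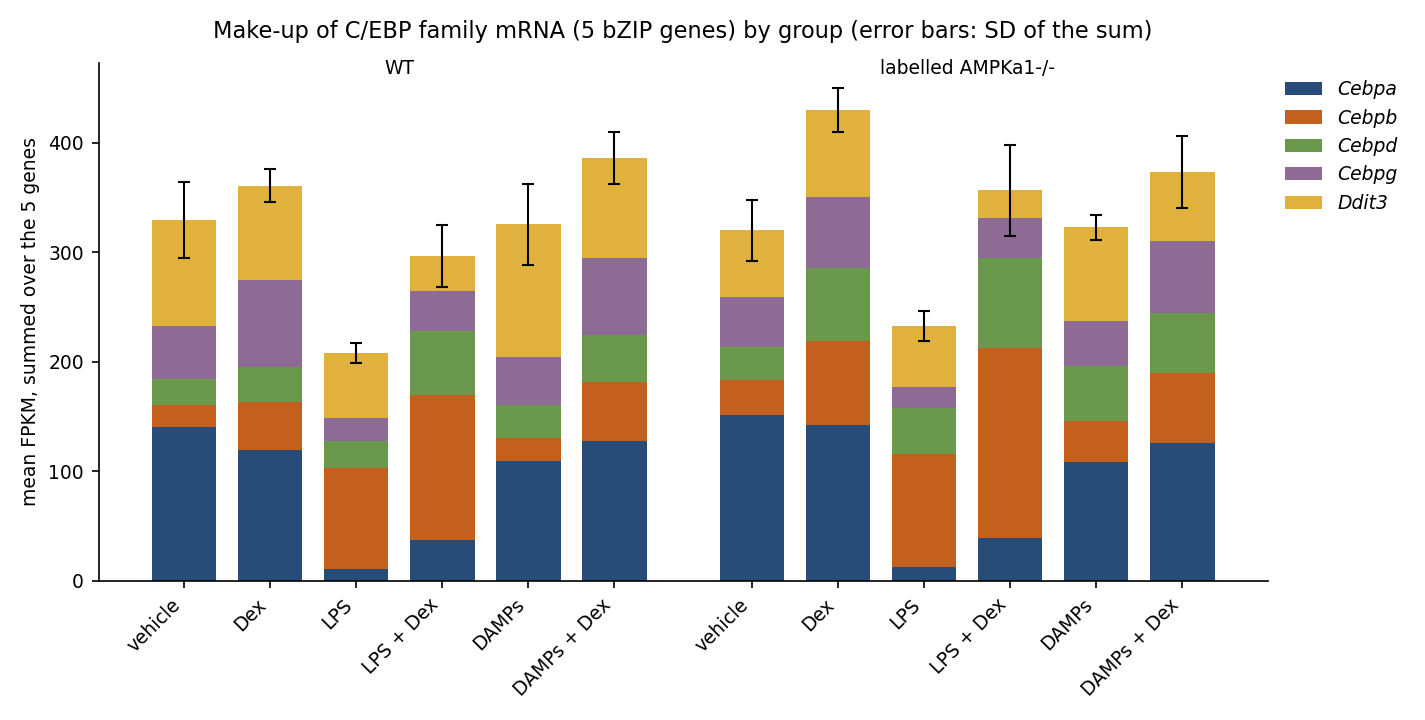
Mean FPKM of the 5 bZIP members stacked by group (bars start at 0), for WT on the left and libraries labelled AMPKa1-/- on the right. Error bars are the SD of the summed level over libraries; the Cebpa part shrinks to 5.13% and 5.34% of the sum under LPS, where Cebpb is the largest part.

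Genotype was compared next within each treatment. Of 36 results (6 members in 6 treatments), 3 passed, all under Dex: Cebpb at 0.78 ± 0.21 (adjusted p = 0.014), Cebpd at 1.07 ± 0.19 (adjusted p = 0.001) and Cebpz at -0.44 ± 0.15 (adjusted p = 0.035). Under Dex 26.5% of all genes passed between genotypes, against 0.432% under vehicle, 0.766% under LPS, 0.669% under LPS + Dex, 0.731% under DAMPs and 1.06% under DAMPs + Dex. The 3 members therefore passed in the treatment where many other genes did. Cebpd was higher in every labelled knockout culture than in every WT culture in 5 of 6 treatments, and 0.775% of all genes tested were so in 5 or more. Cebpb was in 3 of 6, beside 4.4% of all genes in 3 or more, and Cebpa in 1. In the other direction, Ddit3 was lower in every labelled knockout culture in 2 treatments, beside 19.6% of all genes in 2 or more. Cebpg and Cebpz were each so in 1, beside 48.7% in 1 or more. The treatments may not be independent, as the labels do not say whether they share animals, and WT LPS had only 2 libraries. At an unadjusted p under 0.05 there were 12 of 36 member results, against 14.1% of all gene results over the 6 treatments, and 4 of the 12 were under Dex, where 42.1% of all genes passed that threshold. The Cebpb call under Dex was lost without WT Dex replicate 2 or labelled knockout Dex replicate 2 (adjusted p from 0.061 to 0.072), and that of Cebpz without WT Dex replicate 1 or 2 or labelled knockout Dex replicate 1 or 2 (adjusted p from 0.1 to 0.16) or with no filter, centred or quantile-normalised libraries or a fit on the compared groups (adjusted p from 0.058 to 0.11). Cebpg, at -0.29 ± 0.11 (adjusted p = 0.052) under Dex, passed without any 1 of 6 libraries, most of them outside the Dex groups (adjusted p from 0.039 to 0.047): WT LPS + Dex replicate 1 or 3, WT DAMPs replicate 1, or labelled knockout Dex replicate 3, DAMPs replicate 3 or DAMPs + Dex replicate 2. It also passed after quantile normalisation (adjusted p = 0.035), with a replicate block (0.046) and with a minimum of 5 FPKM (0.05). Cebpb under DAMPs, at 0.82 ± 0.21 (adjusted p = 0.071), passed without WT LPS + Dex replicate 3 (adjusted p = 0.046) or labelled knockout DAMPs + Dex replicate 1 (0.037). Markers of other cell types moved with the label: the summed FPKM of the 13 neutrophil and granulocyte precursor markers was 25.9 under Dex in WT (19.1 to 33.5) and 76.2 in the labelled knockout (61.9 to 84). Under vehicle it was 15.2 and 35, under LPS 124 and 110.1, under LPS + Dex 43.4 and 40.0, under DAMPs 14.2 and 37.5, and under DAMPs + Dex, where no member passed between genotypes, 35.5 and 103. For the 6 fibroblast markers the Dex sums were 17.2 and 3.81 FPKM. The neutrophil sums were also lower under LPS + Dex than under LPS in both genotypes. The part of these markers in the genotype differences of Cebpb and Cebpd, or in the member changes on Dex added to LPS, was not tested.

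Responses were not shown to differ between genotypes. In 30 tests of the difference itself (6 members in 5 responses) 0 passed by limma and 2 had an unadjusted p under 0.05, and over all genes 0% passed in each of the 5 responses, with 6.28% of all gene results at an unadjusted p under 0.05. The 2 were Cebpd for Dex against vehicle (0.77 ± 0.26, adjusted p = 0.19) and Cebpb for DAMPs + Dex against DAMPs (-0.63 ± 0.30, adjusted p = 1). For Cebpa the difference was 0.10 ± 0.22 for LPS and -0.14 ± 0.22 for Dex added to LPS, with intervals of -0.35 to 0.54 and -0.58 to 0.31.

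The C/EBP genes were set against acute-phase induction. Saa3, Hp (haptoglobin) and Lcn2 (lipocalin 2), which encode secreted acute-phase proteins, were highest under LPS + Dex in every library of both genotypes. WT Saa3 was 58.8, 108 and 239.8 FPKM under vehicle, and 53811 and 57212 under LPS. Under LPS + Dex it was 125958, 153213 and 225316 FPKM, and it alone made up 16% to 24% of the library's summed FPKM (7.12% to 7.2% under LPS). FPKM is scaled to mapped fragments, in which those of Saa3 are counted, and not to this sum. The median log2(FPKM + 1) of the genes tested was 3.96, 3.87 and 3.97 in the WT vehicle libraries. It was 3.83 and 3.74 under LPS and 3.88, 3.74 and 3.51 under LPS + Dex. The part of Saa3 in these medians, and in the FPKM of other genes, was not tested. The share of Saa3 in the mapped fragments is not given here. Hp was 4.21, 3.99 and 17.3 FPKM under vehicle, 308, 197 and 298 under Dex, 121 and 74 under LPS and 12453, 13518 and 17201 under LPS + Dex. Lcn2 was 2.29, 5.21 and 12.4 FPKM under vehicle, 1603 and 1076 under LPS and 14828, 18873 and 22431 under LPS + Dex. In single WT cultures Hp was higher under Dex than under LPS, and Lcn2, at 11.9, 6.35 and 17.7 FPKM under Dex, was higher under LPS. LPS + Dex was 149-fold above LPS for Hp (log2 change 7.22 ± 0.51, adjusted p = 4.8e-12) and 14-fold for Lcn2 (log2 change 3.81 ± 0.46, adjusted p = 1.2e-07), while Saa3, at 1.56 ± 0.62 (adjusted p = 0.054), did not pass in WT and did in the labelled knockout (log2 change 1.89 ± 0.56, adjusted p = 0.0079). DAMPs + Dex against DAMPs raised all 3 in WT, by 4.93 for Saa3, 5.73 for Hp and 4.61 for Lcn2 on the log2 scale.

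Of the 6 members, Cebpb had the highest positive correlation with these genes. Over the 12 group means of log2(FPKM + 1), its Pearson r was 0.91 with Saa3, 0.85 with Hp and 0.92 with Lcn2, and that of Cebpd was 0.50, 0.79 and 0.52. Cebpa gave -0.75, -0.29 and -0.75, Ddit3 -0.75, -0.73 and -0.85, Cebpg -0.49, 0.02 and -0.52, and Cebpz 0.10, 0.39 and 0.07. These values describe 12 points that share libraries, treatments and mapped totals in which Saa3 fragments are counted. In the plot of single libraries, Hp broke the pattern: the 5 LPS cultures had 90.9 to 112 FPKM of Cebpb but at most 288 FPKM of Hp, below every DAMPs + Dex culture, where Cebpb was 42.5 to 79.2 FPKM. Cebpd, which LPS alone did not raise in WT, was also higher in DAMPs + Dex than in LPS cultures of WT. In the labelled knockout Cebpd overlapped between LPS (36.2 to 46 FPKM) and DAMPs + Dex (44.1 to 63.7 FPKM). Cebpd overlapped there between Dex (65.1 to 70.0 FPKM) and LPS + Dex (69.3 to 95.8 FPKM) as well. Hp was 389 to 707 FPKM in those Dex cultures and 14745 to 16350 FPKM in those LPS + Dex cultures.

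**Figure D4:**
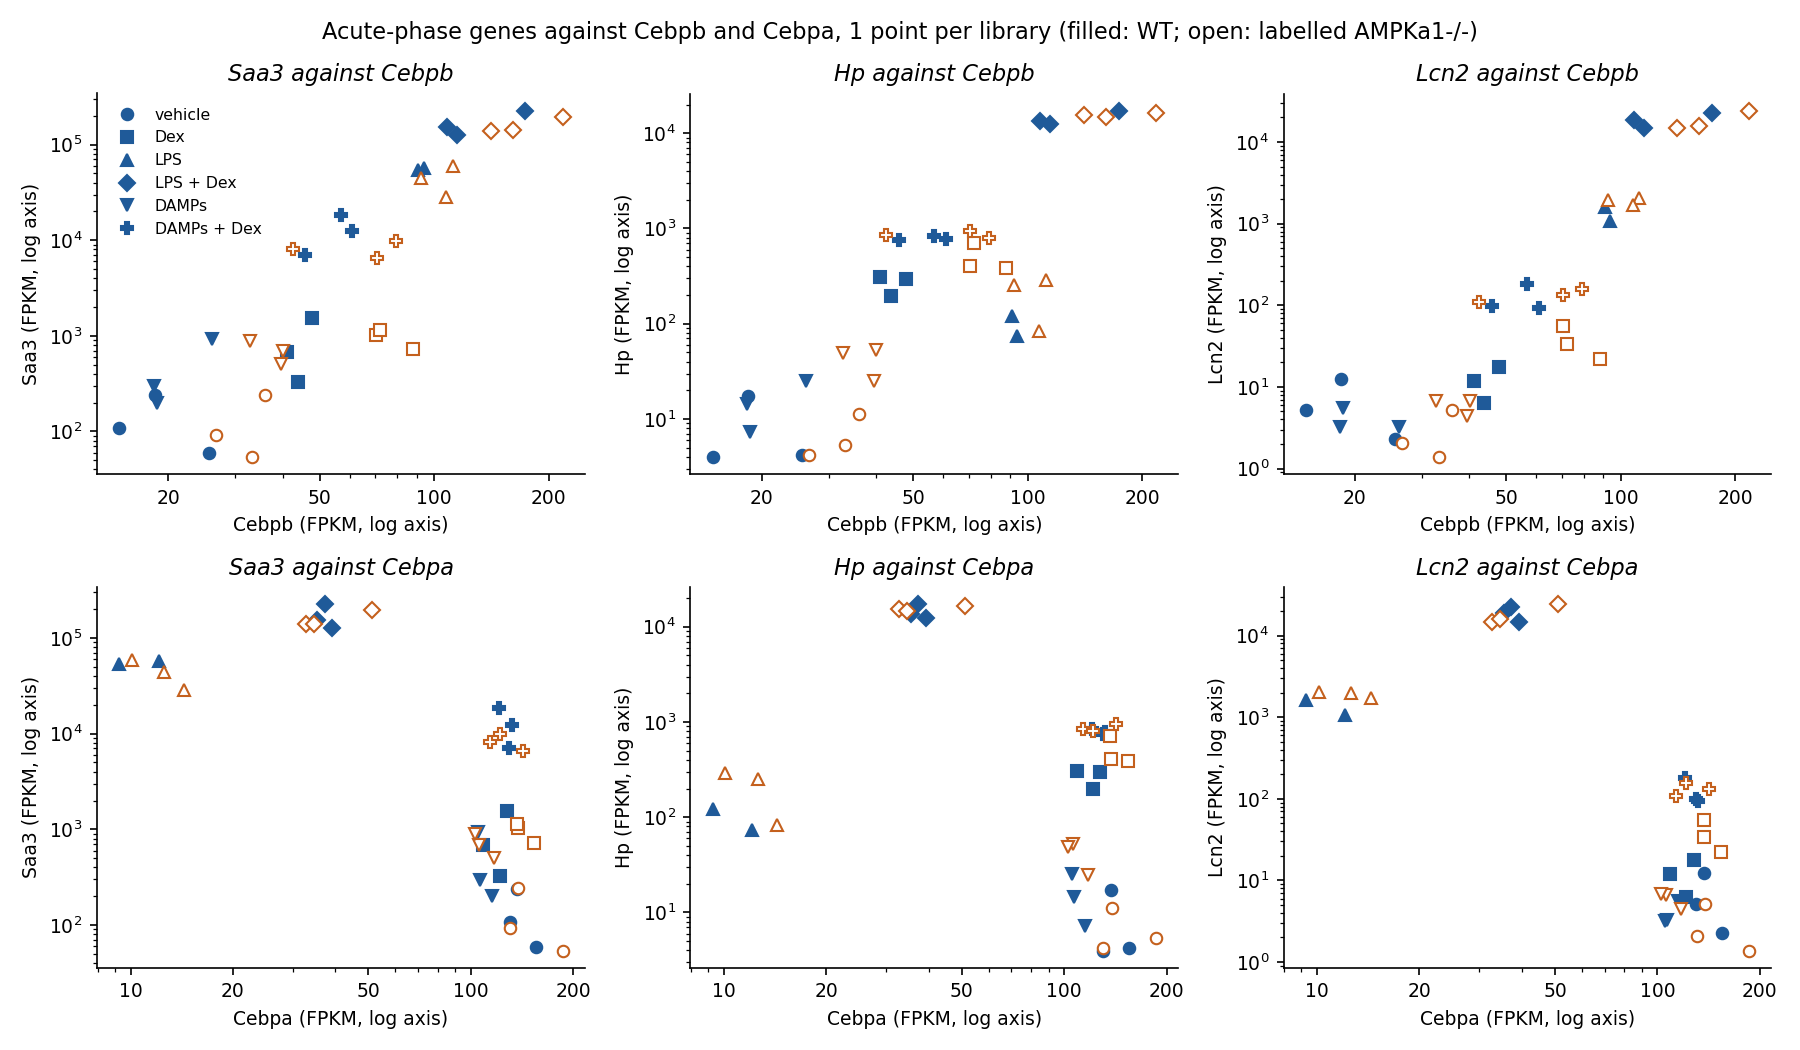
FPKM of Saa3, Hp and Lcn2 against Cebpb (top) and Cebpa (bottom), 1 point per library, log axes, symbols by treatment, filled for WT and open for libraries labelled AMPKa1-/-. LPS + Dex libraries (diamonds) lie at the top of all panels; in the panel of Hp against Cebpb the LPS libraries (upward triangles) fall below the DAMPs + Dex libraries.

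The wider list of 33 acute-phase and alarmin genes, in which the metallothioneins Mt1 and Mt2 are also on the glucocorticoid list below, had 18 that passed the filter. Under LPS in WT, 15 rose, 1 fell and 2 did not pass, with a median log2 change of 2.73 against -0.19 for all genes, of which 19.9% rose and 35.8% fell. Dex added to LPS raised 10 and lowered 3, median 1.5 against -0.03, where 16.6% of all genes rose and 17.5% fell. Among the largest changes, S100a8 (an alarmin of myeloid cells) rose 38.8-fold and the metallothionein Mt2 15.5-fold on Dex added to LPS, whereas Il1rn (the interleukin-1 receptor antagonist) rose 45.6-fold under LPS and fell 13.1-fold with Dex. Cp (ceruloplasmin) rose 23.8-fold under LPS and 1.76-fold more with Dex. In the labelled knockout the counts were 16 higher and 1 lower for LPS (20.2% and 44.1% of all genes) and 12 and 3 for Dex added to LPS (19.3% and 18.4%). Dex alone raised 6 and lowered 1 of the list in WT, where 15.9% of all genes rose and 14.9% fell. The counts for Dex alone in the labelled knockout were 8 and 1, where 11.9% of all genes rose and 16% fell. Lcn2 passed there (9.99-fold higher, adjusted p = 4e-07) and not in WT (adjusted p = 0.094). For the difference between genotypes in this response, 0 genes of the list passed.

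Genes that C/EBP factors are known to drive in myeloid cells were counted in the same way, 27 tested of 34. This list shares a gene with the acute-phase list. Under LPS in WT 18 rose and 5 fell (median 2.91 against -0.19 for all genes, of which 19.9% rose and 35.8% fell). Dex added to LPS raised 3 and lowered 17, and 7 did not pass (median -1.63 against -0.03, where 16.6% of all genes rose and 17.5% fell). Dex alone raised 3 and lowered 6 in WT, where 15.9% of all genes rose and 14.9% fell, and 18 did not pass. The falls were led by inflammatory mediators: Ptgs2 (cyclooxygenase 2) fell 318-fold, the cytokine genes Il12b and Il6 fell 180.4-fold and 116-fold, and the chemokine gene Ccl2 fell 161-fold. Il1b had risen 2582-fold under LPS and fell 113-fold. In the labelled knockout the counts were 18 higher and 5 lower for LPS (20.2% and 44.1% of all genes), and 3 and 17 for Dex added to LPS (19.3% and 18.4%).

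Of 27 tested partners and regulators of C/EBP proteins, 8 rose and 11 fell under LPS in WT, with a median of -0.24 against -0.19 for all genes, and in the labelled knockout 8 rose and 14 fell, with a median of -0.56 against -0.30. Over all genes 19.9% rose and 35.8% fell in WT, and 20.2% and 44.1% in the labelled knockout. Pparg, a nuclear receptor of lipid metabolism, fell 22.3-fold and did not pass on Dex added to LPS (log2 change 0.06 ± 0.24, adjusted p = 0.88). Il6st, the shared receptor chain of the interleukin-6 family, fell 9.83-fold and rose 2.24-fold when Dex was added. Batf, a bZIP partner, rose 17.8-fold under LPS. Its relative Batf2 rose 6.12-fold and then fell 5.97-fold with Dex. The AP-1 genes Fos and Jun rose 5.35-fold and 3.09-fold on Dex added to LPS, after falls of 4.18-fold and 2.66-fold under LPS. These 3 genes (Il6st, Fos and Jun) fell and then rose as Cebpa did, but both comparisons use the same LPS libraries, so the directions are not independent. Dex added to LPS moved 6 of the list up and 5 down in WT, and 8 and 7 in the labelled knockout, beside 16.6% and 17.5% of all genes in WT and 19.3% and 18.4% in the labelled knockout. The medians of the list, -0.06 and 0.02, were near those of all genes.

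The stress list, to which Ddit3 belongs by function but not by membership, was mixed. Of 32 tested genes of the integrated stress and unfolded protein responses, Dex added to LPS raised 5 and lowered 12 in WT (median -0.29 against -0.03 for all genes, of which 16.6% rose and 17.5% fell), and 6 and 10 in the labelled knockout (19.3% and 18.4% of all genes). Atf3, a stress-induced repressor, fell 6.96-fold and Eif2ak2, the double-stranded RNA sensor PKR, 6.10-fold. Ddit4, which is also on the glucocorticoid list, rose 9.44-fold, and Phgdh, of serine synthesis, 4.88-fold. LPS itself raised 16 and lowered 9 (median 0.44 against -0.19 for all genes, of which 19.9% rose and 35.8% fell), led by Slc7a11, the cystine transporter, which rose 10.2-fold, while Bbc3 (PUMA), an apoptosis gene that p53 and CHOP can turn on, fell 4.64-fold. Creld2, a chaperone-like target of the unfolded protein response, rose 3.39-fold.

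Genes known to be induced by glucocorticoids were counted too, 15 tested of 16, as mRNA levels and not as a measure of receptor activity. Dex alone raised 10 and lowered 1 in WT, where 15.9% of all genes rose and 14.9% fell, and 11 and 1 in the labelled knockout, where 11.9% of all genes rose and 16% fell. With LPS, Dex raised 11 and lowered 2 in WT, where 16.6% of all genes rose and 17.5% fell, and raised 11 and lowered 1 in the labelled knockout, where 19.3% of all genes rose and 18.4% fell. Tsc22d3 (GILZ) rose 60.2-fold and Fkbp5 46.9-fold in WT. Under LPS alone Tsc22d3 fell 13.8-fold, as did Anxa1 (annexin A1) 11.5-fold, the scavenger receptor gene Cd163 4.74-fold and Tsc22d1 3.90-fold. On Dex added to LPS, Cd163 rose 3.85-fold and Tsc22d1 2.32-fold, while Anxa1 did not pass (log2 change 0.08 ± 0.24, adjusted p = 0.84).

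**Figure D5:**
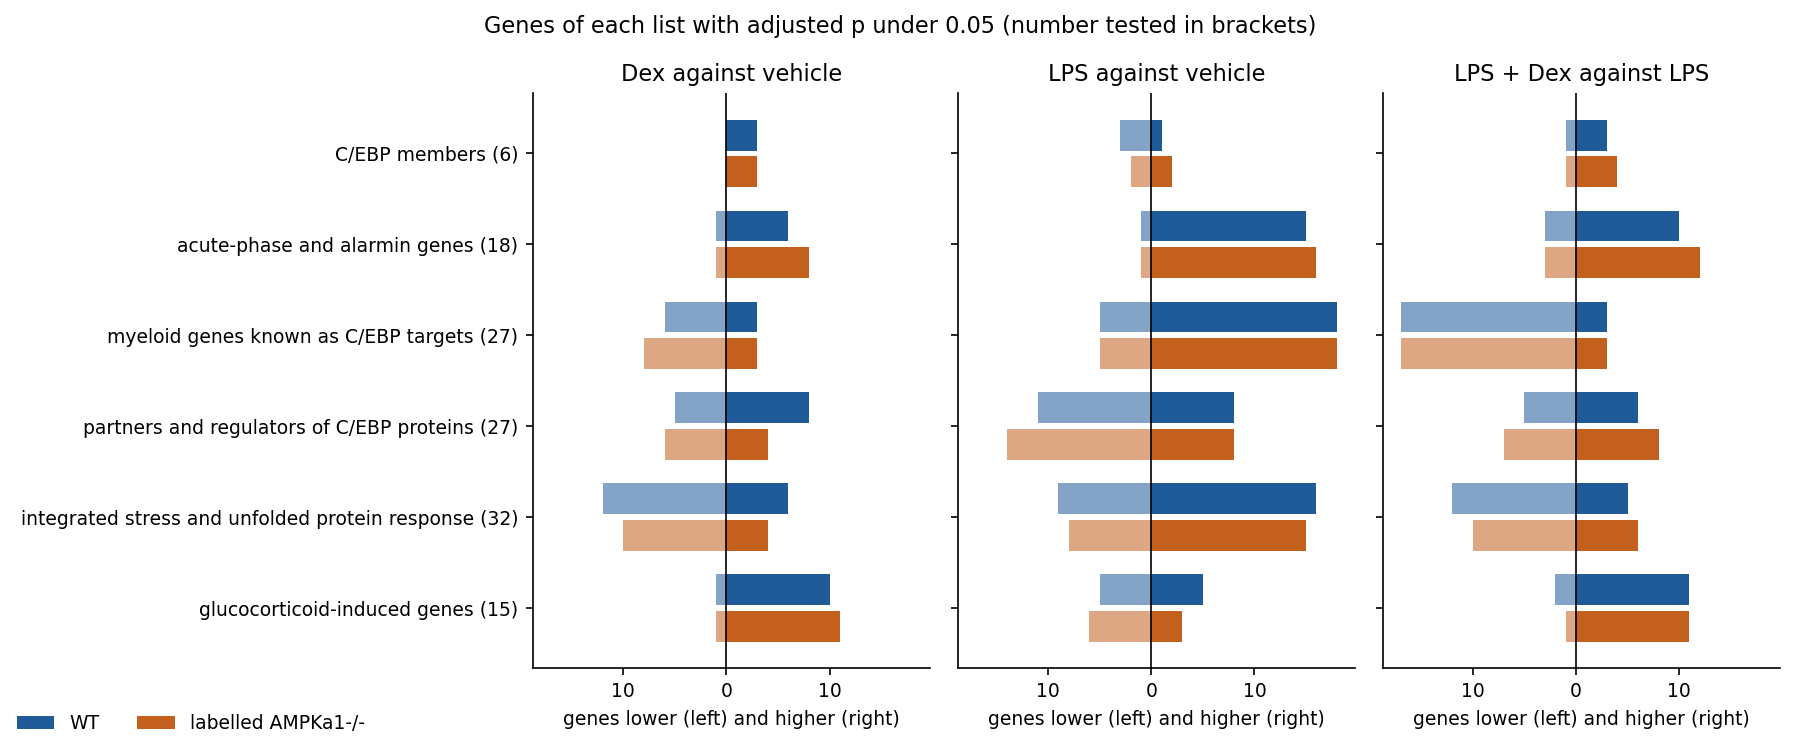
Number of genes of each list with an adjusted p under 0.05, lower to the left and higher to the right of 0, in 3 comparisons, WT in blue and libraries labelled AMPKa1-/- in orange (tested genes in brackets). On Dex added to LPS the acute-phase list has 10 higher and 3 lower in WT, and the myeloid target list 3 higher and 17 lower.

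Finally, the genes whose 12 group means ran most like each member were found among 6901 tested genes that span at least 1 log2 unit. For Cebpa they were Matk (r = 0.993), Casp6 (r = 0.993) and Ctsd (r = 0.992), of which Ctsd is the lysosomal protease cathepsin D. For Cebpb they were Ift57 (r = 0.968), Ccnd3 (r = 0.960) and Tmem63a (r = 0.957), and Ccnd3 is the cell cycle gene cyclin D3. Cebpd was most like Mgst2 (r = 0.933), Tm2d2 (r = 0.906) and Unc119 (r = 0.894). For Cebpg they were Klhl9 (r = 0.997), Acp6 (r = 0.995) and Kifc2 (r = 0.992). Ddit3 was nearest to Adam33 (r = 0.967), Ctss (r = 0.964) and Mob3c (r = 0.956), where Ctss is cathepsin S. Cebpz, which spans only 0.821 log2 units, was nearest to Hivep2 (r = 0.922), Wdcp (r = 0.917) and Usp32 (r = 0.906). These values are descriptions over 12 points drawn from the same libraries.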

How the data were processed

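RNA of 35 macrophage cultures was sequenced, and the authors deposited 1 table of FPKM per library, normalised to exon length and mapped fragments. The submitters' processing notes name Bowtie2 2.2.3, TopHat2 2.0.12, HTSeq 0.6.1, DESeq2, GRCm38 and mm10 without roles. Fragment totals were estimated from steps between low values, of which 55.1% to 63.4% came out whole (within 0.001 of a fragment), so no counts were rebuilt. Symbols came from GENCODE M21 (46488 of 47069 identifiers) on GRCm38. Log2(FPKM + 1), which understates changes of low genes, was fitted with limma 3.58.1 in R 4.3.3 (empirical Bayes with trend) for genes with a mean of at least 1 FPKM, over 35 libraries in 12 groups with no batch term. P-values were two-sided and Benjamini-Hochberg adjusted over 11354 genes, and the code was tested on simulated data. No 2 libraries shared identical columns, and replicates correlated at 0.987 to 0.997. The labels do not say what a replicate number marks. Deviations from group means correlated over 0.1 in all 3 same-numbered pairs of the labelled knockout for vehicle with Dex, LPS and LPS + Dex and for LPS with LPS + Dex. A replicate block changed no member's call when 1 group of such a pair was compared with the other. In the difference of Dex effects with and without LPS, which uses the same groups, Cebpg passed with the block only (adjusted p = 0.033, against 0.079). The WT LPS libraries are numbered 2 and 3, and the samples used here hold no WT LPS replicate 1.

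Members and lists were chosen with earlier results of these data known. The genes named were the members, Prkaa1, Cebpe, Saa3, Hp, Lcn2, up to 4 called genes of each list with the largest WT changes in LPS + Dex against LPS and up to 4 in LPS against vehicle, the most abundant marker of each cell type, and the 3 genes nearest to each member; 1 gene that this rule names is not reported here. Each result was recomputed with a pseudocount of 0.1, without the filter or with a minimum of 5 FPKM, after median centring or quantile normalisation, on fewer libraries, with the replicate number as a block, and with each library left out.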

Additional observations from a re-analysis of the deposited data

How the results depend on the processing

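Over 6 members in 27 comparisons 52 results passed, none of these 52 changed sign in any setting, and 39 kept their call in all settings, 44 in the settings other than leaving out single libraries and 40 whichever library was left out. Of the other 110 results, 14 passed in at least 1 setting and 35 took the other sign in at least 1. The count of members passing for DAMPs against vehicle in the libraries labelled AMPKa1-/-, 1 in the report, was 0 with no filter, 0 when fitted on the compared groups only, 0 when fitted on that genotype only, 2 with the replicate block, and 0 to 2 with single libraries left out. For DAMPs + Dex against DAMPs in those libraries it was 1 instead of 3 on the compared groups only. Leaving out single libraries gave 1 to 3 members for the difference of Dex effects in WT (2 in the report) and 1 to 5 over the genotype contrasts (3 in the report). The cause of these shifts was not tested. Over all pairs of groups the deviations of same-numbered replicates correlated at -0.47 to 0.76 in WT (median 0.28, over 0.1 in 25 of 40 pairs) and -0.49 to 0.47 in the labelled knockout (median 0.22, 29 of 45), against medians of -0.10 (22 of 80) and -0.09 (23 of 90) for different numbers, a hint of pairing from the data and not from the labels. All 3 pairs were over 0.1 in 3 of 10 pairs of groups in WT and 4 of 15 in the labelled knockout. With the replicate block 4 genotype results passed, and the differences of Dex effects had 3 members each in WT and in the labelled knockout. The WT LPS fits without 1 library assume that the lone culture varies like the other groups.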
